A study of Mus musculus with 9 samples.

Results

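The heat-shock chaperone genes described here are Hspa1a, Hspa1b, Hspa8, Dnajb1, Hsph1, Hsp90aa1, Hsp90ab1, Hspd1 and Hspe1, 9 of the 24296 genes counted. This list was chosen by measured values, namely the level in each mouse, the share of positive cells in gated cell types, the spread among sick mice and the detection beside Fos and Jun, so those measures are given as descriptions with no reading of their tests. All 9 mice were females of strain 129/Sve aged 8 weeks. Their injected left knees were taken whole 1 week after the injection, and cells were read by Seq-Well, in which each cell settles in a tiny well with a bead that tags its polyadenylated RNA. Sick mice (n = 5, numbered 1, 3, 4, 5 and 6) had been sensitized to methylated bovine serum albumin (mBSA) and received mBSA in the joint, which sets off an antigen-induced arthritis that the labels say was checked by immunohistochemistry. Healthy mice (n = 4, numbered 1 to 4) received phosphate-buffered saline in the same joint, and the labels do not say whether they were sensitized too.

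Heat-shock chaperones bind unfolded protein and help it fold. Under heat or other protein stress the factor HSF1 binds repeated short elements in their promoters and drives their transcription, most steeply for the inducible Hsp70 genes Hspa1a and Hspa1b. Such genes, like the immediate-early genes Fos and Jun, are also known to be switched on in cells while a tissue is being taken apart for single-cell work, so their level can carry a record of handling as well as of the living joint.

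The kept cells numbered 16749 of 16751 (12200 in sick mice, 4549 in healthy mice), with 1589079 to 4675909 counts per sick mouse and 896930 to 1514252 per healthy mouse. Median counts per cell were 812 to 944 in sick mice and 766 to 1009 in healthy mice. Mitochondrially encoded genes took 3.09% to 6.05% of counts in sick mice and 5.48% to 10.3% in healthy mice. Of 16741 distinct cell barcodes, 8 occurred in more than 1 mouse. The labelled tissue is the joint, and the libraries held many blood-cell and few cartilage transcripts: neutrophil markers summed to 9415 to 16679 CPM (counts scaled to a common library size per 1e6) in sick mice and 4068 to 14311 CPM in healthy mice, whereas chondrocyte markers reached at most 5.35 CPM in sick mice and 32.2 CPM in healthy mice and were at 0 in healthy mouse 2. A UMI (a unique molecule count) of the neutrophil gene S100a8 was present in 99.6% of kept cells, so a single marker UMI did not place a cell in a class.

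Promoter sequences of some of the genes are shown first, and their bearing on the results was not tested. Hspa1a lies on chr17:34969190-34972156 and Hspa1b on chr17:34956436-34959238, both on the minus strand of GRCm38. The 250 bases before their annotated starts, at chr17:34972157-34972406 and chr17:34959239-34959488, differed at 3 positions of 250, so 98.8% of the bases were identical. Counted from 1 at the 5′ end, the differences from Hspa1a to Hspa1b were C44T, T47C and T249G. The capitals mark 2 inverted units of the heat-shock element spaced by 2 bases (GAANNTTC or TTCNNGAA; each reads the same on both strands).
Hspa1a: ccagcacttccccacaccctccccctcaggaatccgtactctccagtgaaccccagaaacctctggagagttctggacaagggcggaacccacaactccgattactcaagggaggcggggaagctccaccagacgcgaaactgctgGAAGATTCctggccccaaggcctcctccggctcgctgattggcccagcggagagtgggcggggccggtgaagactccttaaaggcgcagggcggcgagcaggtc
Hspa1b: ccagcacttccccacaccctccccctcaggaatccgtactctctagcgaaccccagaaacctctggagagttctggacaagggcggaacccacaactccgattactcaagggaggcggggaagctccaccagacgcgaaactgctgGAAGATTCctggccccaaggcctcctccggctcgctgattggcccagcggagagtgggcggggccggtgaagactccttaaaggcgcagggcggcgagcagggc
The transcripts were identical at 90.7% of 2771 aligned bases, so reads may be split between the genes in an uncertain way, and their sum is given beside each.

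Hspd1 (chr1:55077835-55088243, minus strand) and Hspe1 (chr1:55088132-55091307, plus strand) encode the mitochondrial Hsp60 chaperonin and its Hsp10 partner. They start close together on opposite strands, and their listed 5′ ends overlap. The stretch at chr1:55088019-55088118 lies inside Hspd1 as listed and before the Hspe1 start. Printed on the plus strand, it holds 4 adjoining inverted units (capitals). These match the 3-unit forms TTCNNGAANNTTC and GAANNTTCNNGAA, each the reverse complement of the other.
Hspe1: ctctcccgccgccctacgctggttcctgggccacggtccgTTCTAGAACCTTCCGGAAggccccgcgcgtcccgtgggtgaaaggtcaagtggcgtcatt
Hsph1 (chr5:149614287-149636376, minus strand) holds a 3-unit match just after its first listed start, at chr5:149636287-149636308 (capitals).
Hsph1: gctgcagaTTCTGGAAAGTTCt
Promoter windows of 300 bases (250 before and 50 after the start; RefSeq, GRCm38.p6) were listed for 6 of the 9 genes. A 2-unit match stood in 6 of their 9 windows and a 3-unit match in 4 of 9, against 15.1% and 0.603% of all 32851 windows; the 2-unit matches include those within 3-unit ones. The 9 windows are not independent, since Hspd1 and Hspe1 share 1 stretch and the pair of Hsph1 windows overlap. The windows of Dnajb1 held no match in these letters, nor did the Hspd1 window at chr1:55088194-55088493. A match is a string of letters and was not tested as a site.

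The inducible Hsp70 genes had the widest differences between mice. Hspa1a (an ATP-driven chaperone that is scarce in unstressed cells) had 1.01, 79.4, 50.1, 197 and 164 CPM in sick mice 1, 3, 4, 5 and 6, against 3.43, 3.85, 0.978 and 1.94 CPM in healthy mice 1 to 4. Hspa1b, its near copy, had 1.35, 80.0, 80.6, 247 and 202 CPM in the sick mice, against 4.57, 2.56, 1.96 and 1.94 CPM in the healthy mice. Summed, the pair had 2.36, 159, 131, 445 and 366 CPM in the sick mice, against 8.00, 6.41, 2.93 and 3.89 CPM in the healthy mice. So 4 of 5 sick mice lay far above every healthy mouse. Sick mouse 1 had the lowest scaled sum of the 9 mice, on few counts. Its share of cells with a UMI of either gene (0.334%) lay within the healthy range. That share was above those of healthy mice 3 and 4 (0.214% and 0.245%) and below those of healthy mice 1 and 2 (1.14% and 0.571%). Sick mouse 1 was thus not told apart from the healthy mice. The raw counts behind its sum were 3 and 4 (Hspa1a and Hspa1b) among 2427657 counts, against 12 and 14 in the 4 healthy mice together. The log2 fold change of sick over healthy mice was 5.22 ± 1.07 (SE) for Hspa1a, 5.32 ± 1.05 for Hspa1b and 5.30 ± 1.01 for their sum. Sick mouse 1 also had the highest summed neutrophil markers (16679 CPM) and granulocyte progenitor markers (3624 CPM) of the 9 mice, and haemoglobin genes took the lowest share of its counts (10.2%); their part in the result was not tested. Between the groups, the ribosomal RNA-like share (0.910% to 2.21% in sick mice, lowest in sick mice 5 and 6, and 2.39% to 6.14% in healthy mice) and the summed fibroblast markers (51.6 to 957 CPM in sick mice, 12.3 to 43.0 CPM in healthy mice) did not overlap, and their part was not tested either. In whole-joint sums fewer cells of a type and less RNA per cell cannot be told apart.

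The partners of Hsp70 differed less between mice. Dnajb1, a J-domain protein that hands substrates to Hsp70, had 37.4, 89.7, 64.5, 172 and 153 CPM in the sick mice, against 33.7, 34.6, 41.1 and 31.1 CPM in the healthy mice. Hsph1, an Hsp110 protein that exchanges the nucleotide of Hsp70, had 20.2, 91.2, 67.9, 158 and 326 CPM in the sick mice, against 17.7, 28.2, 37.2 and 28.2 CPM in the healthy mice. For both genes sick mice 3, 4, 5 and 6 stood above all healthy mice and sick mouse 1 stood among them. Hspa8, the constitutive Hsp70, had 64.4, 79.0, 76.5, 123 and 143 CPM in the sick mice, against 57.1, 83.3, 60.6 and 33.0 CPM in the healthy mice, and the groups overlapped. Log2 fold changes were 1.56 ± 0.37 for Dnajb1, 2.29 ± 0.59 for Hsph1 and 0.75 ± 0.27 for Hspa8.

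**Figure D1:**
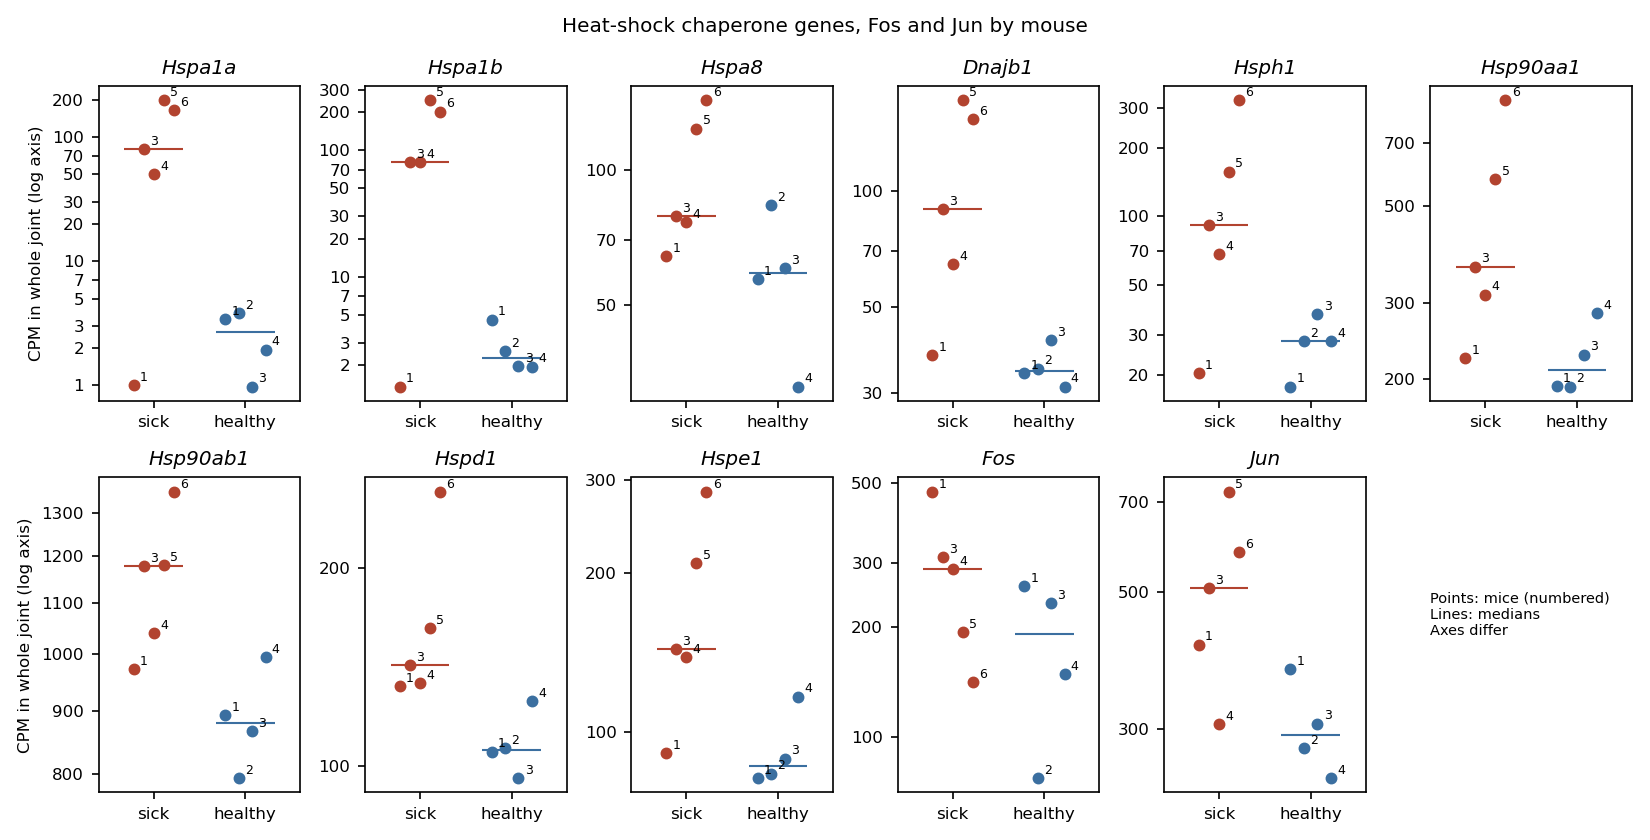
CPM of each chaperone gene, Fos and Jun in the whole joint of each mouse, sick mice left and healthy mice right, on log axes that differ between panels; points carry the mouse number and lines are medians. Sick mouse 1 is the lowest sick mouse for each of the 9 chaperone genes and the highest for Fos (472 CPM).

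The cytosolic Hsp90 genes had smaller fold changes than the inducible Hsp70 genes and, by edgeR, neither was called. Hsp90aa1, the stress-inducible form, had 224, 363, 313, 577 and 876 CPM in the sick mice, against 193, 192, 228 and 284 CPM in the healthy mice. Hsp90ab1, the constitutive form, had 973, 1178, 1039, 1181 and 1353 CPM in the sick mice, against 893, 794, 866 and 995 CPM in the healthy mice. In both, only sick mouse 1 fell within the range of the healthy mice. Their log2 fold changes were 1.07 ± 0.31 and 0.37 ± 0.15.

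Of the mitochondrial pair, Hspd1 had 132, 142, 134, 162 and 261 CPM in the sick mice, against 105, 106, 95.8 and 125 CPM in the healthy mice. It was the 1 gene of the 9 with every sick mouse above every healthy mouse, a pattern found in 2.85% of the 10323 genes tested. Hspe1 had 91.1, 143, 139, 209 and 285 CPM in the sick mice, against 81.7, 83.3, 89.0 and 117 CPM in the healthy mice. Here sick mouse 1 again lay among the healthy mice. Log2 fold changes were 0.62 ± 0.20 for Hspd1 and 0.91 ± 0.27 for Hspe1.

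All 9 fold changes were positive, with a median of 1.07 on the log2 scale, against -0.02 over all tested genes. By edgeR's quasi-likelihood test with Benjamini-Hochberg adjustment, Hspa1a (adjusted p = 0.0260) and Hspa1b (adjusted p = 0.0207) passed 0.05, 2 of 9, where 0.639% of all genes passed as higher; because the contrast chose the genes, nothing is read from that count. The calls rested on single mice. Without sick mouse 1, 6 of the 9 passed (Hspa1a, Hspa1b, Dnajb1, Hsph1, Hsp90aa1 and Hspe1), whereas without sick mouse 3, 5 or 6 none passed and Hspa1a and Hspa1b fell out at the low-count filter; without healthy mouse 2, 3 or 4 none passed, and without healthy mice 2, 3 and 4 together none passed.

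**Figure D2:**
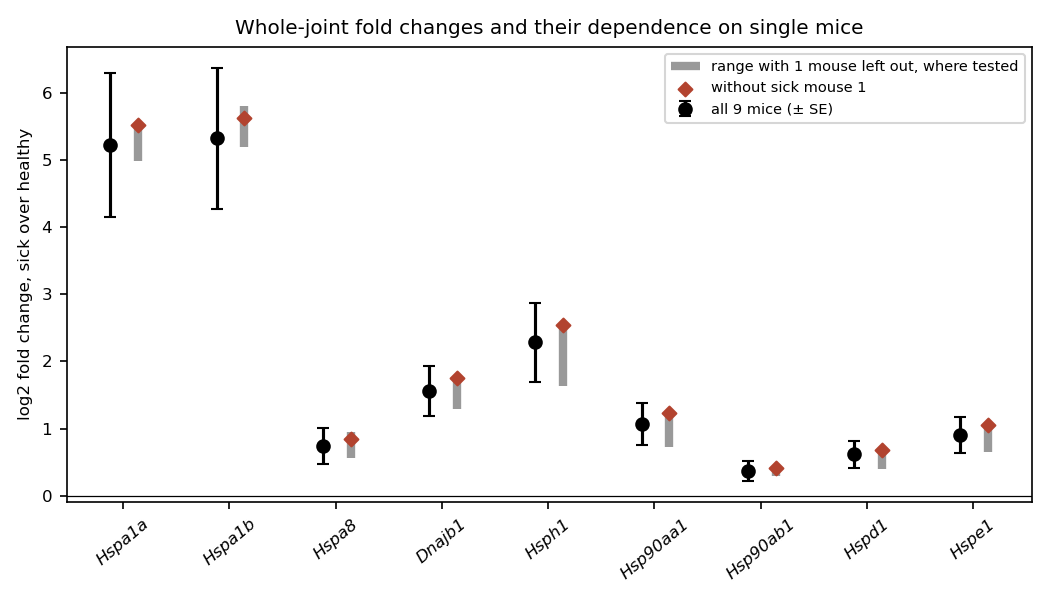
Log2 fold change of sick over healthy mice per gene: black points with bars give the fit on all 9 mice with its SE, grey bars the range with each mouse left out in turn where the gene was still tested, and red diamonds the fit without sick mouse 1. Fold changes stay above 0 in every such fit, and without sick mouse 1 each is higher than with all mice.

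The spread among sick mice was described as the SD of log2 CPM. It was 2.73 for Hspa1a and 2.75 for Hspa1b over the 5 sick mice, against 0.62 and 0.45 over the 4 healthy mice. It was 1.47 for Hsph1, 0.90 for Dnajb1, 0.77 for Hsp90aa1, 0.62 for Hspe1, 0.49 for Hspa8, 0.41 for Hspd1 and 0.18 for Hsp90ab1, against a median of 0.29 over all genes in sick mice. The SD of Hsph1 exceeded that of 99.7% of tested genes and that of Hsp90ab1 exceeded that of 21.4%. Hsp90ab1 was thus steadier across sick mice than most genes, and the inducible genes were among the least steady. The constitutive Hspa8 was not steady, with an SD above that of 85.9% of tested genes. Its SD in healthy mice was 0.54, above that of 71.1% of genes, so its spread was not particular to sick mice. Genes were not matched for level in these ranks, and Hsp90ab1 ranked low in healthy mice too (5.43%).

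Of Fos and Jun, the subunits of the AP-1 factor, Fos did not follow the order of the sick mice in the chaperone genes. Fos had 472, 311, 289, 195 and 142 CPM in sick mice 1, 3, 4, 5 and 6, against 259, 76.9, 234 and 149 CPM in the healthy mice. Sick mouse 1, lowest in every chaperone gene, was thus highest in Fos, and sick mouse 6, highest in 6 of the 9, was lowest. Jun had 411, 507, 306, 726 and 580 CPM in the sick mice, against 375, 280, 306 and 250 CPM in the healthy mice. Its highest sick mice were 5, 6 and 3, as for the Hspa1a and Hspa1b sum, and sick mouse 4 was its lowest. Neither Fos nor Jun passed edgeR's quasi-likelihood test (Benjamini-Hochberg adjusted p = 0.428 for Fos and 0.131 for Jun).

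Other chaperone genes were read from lists written alongside the 9. None of 19 tested Hsp70 co-chaperones and relatives, 14 Hsp90 co-chaperones, 4 small heat-shock and HSF genes, 12 mitochondrial chaperones and proteases, 14 TRiC and prefoldin subunits, 16 endoplasmic reticulum chaperones and 20 immediate-early genes passed in either direction, where 0.94% of all genes did by edgeR. At an unadjusted p under 0.05, 13 of these 99 genes would count as higher and 4 as lower, and 3 passed by DESeq2. The Hsp70 co-chaperones and relatives had a median of -0.01, and 9 of 19 were positive, with the J-domain genes Dnaja4 at -0.58 ± 0.34 and Dnajb4 at -0.42 ± 0.29 and the Hsp70 relative Hspa2 at 0.54 ± 0.27. Dnaja1, a J-domain partner of cytosolic Hsp70 and the largest fold change of that list, had 166, 279, 310, 437 and 589 CPM in the sick mice, against 178, 167, 211 and 176 CPM in the healthy mice, so sick mouse 1 stood apart here too. The polyubiquitin gene Ubb had 1181, 1346, 1067, 1903 and 1716 CPM in the sick mice, against 898, 705, 1035 and 930 CPM in the healthy mice, with no overlap. Their log2 fold changes were 0.96 ± 0.27 (adjusted p = 0.122, edgeR) and 0.69 ± 0.19 (adjusted p = 0.112). The endoplasmic reticulum genes had a median of 0.18, with Hspa5 (the chaperone BiP) at 0.32 ± 0.14 and Xbp1 (a transcription factor of the unfolded protein response) at 0.62 ± 0.18. The TRiC subunit Tcp1 was at -0.42 ± 0.16 and the mitochondrial unfoldase gene Clpx at -0.52 ± 0.18. Among immediate-early genes, Rhob (a small GTPase) was at 0.81 ± 0.21 and Klf2 (a zinc-finger factor) at 0.83 ± 0.29.

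Outside the 9 chaperones, the genes nearest in profile to the Hspa1a and Hspa1b sum were Oas1g, Rtp4, Oas1a, Gm13822 and Ifi27l2a. Over the 9 mice, their mean absolute difference of centred log2 CPM from the sum was 1.22 to 1.53. The search took in 5881 genes at 20 CPM or more, with a median of 2.74. Hsph1 was at 1.57 and the other chaperones outside the pair at 1.93 to 2.54. Hspa1b, at 0.157, is itself part of the sum. Oas1g, Rtp4, Oas1a and Ifi27l2a are known as interferon-induced genes. Unlike the chaperones they were high in sick mouse 1 as well: Rtp4 had 66.5, 69.8, 67.3, 89.0 and 57.0 CPM in the sick mice, against 5.71, 1.28, 0.978 and 0.972 CPM in the healthy mice.

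In single cells, Hspa1a and Hspa1b were seen in a minority of cells of 4 sick mice and in almost none elsewhere. With each cell thinned to 500 UMIs, 0.166%, 7.21%, 6.42%, 11.9% and 11.5% of cells of sick mice 1, 3, 4, 5 and 6 held a UMI of Hspa1a or Hspa1b, against 0.521%, 0.510%, 0.0756% and 0.0865% in healthy mice 1 to 4. In sick mouse 1 this was 3 of 1805 cells. Without thinning, the mean share was 12.4% in sick mice and 0.543% in healthy mice. Positive cells were not all at 1 UMI: 87, 22, 160 and 130 cells of sick mice 3, 4, 5 and 6 held 3 or more UMIs of the pair, and these cells held 43.1%, 32.6%, 73.4% and 57.2% of the pair's UMIs. No cell of sick mouse 1 or of a healthy mouse reached 3 UMIs. The most in 1 cell was 28, in sick mouse 5.

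**Figure D3:**
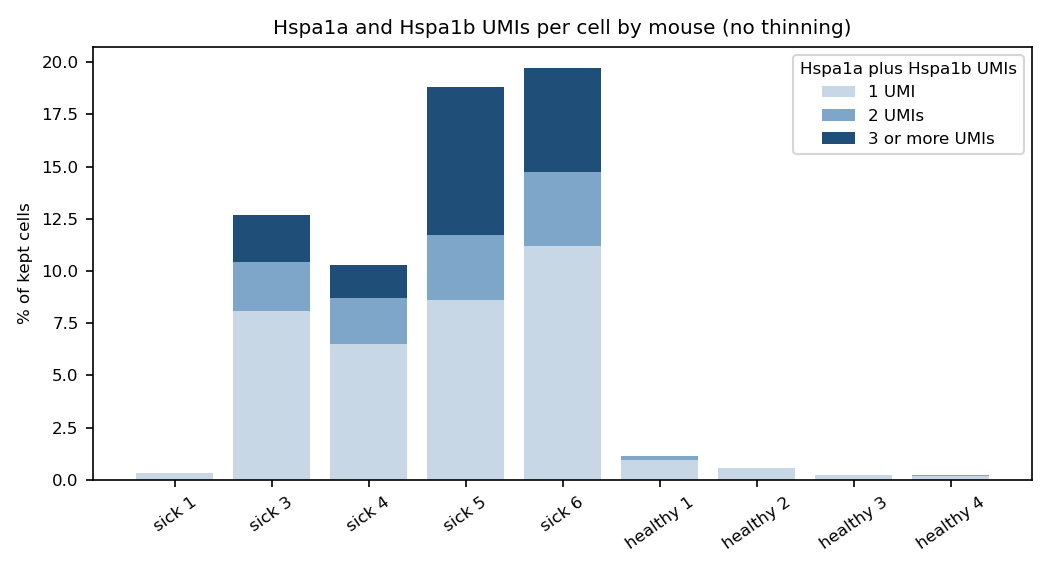
Share of kept cells of each mouse (sick left, healthy right) with 1, 2, or 3 or more UMIs of Hspa1a plus Hspa1b, without thinning. Cells with 3 or more UMIs occur in sick mice 3, 4, 5 and 6 and in no other mouse.

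Hsph1 was positive in 0.720%, 3.86%, 2.76%, 5.64% and 10.1% of thinned cells of the sick mice, against 0.730%, 0.765%, 0.983% and 1.21% in the healthy mice. Dnajb1 was positive in 2.49%, 4.60%, 3.41%, 6.93% and 5.30% of cells of the sick mice, against 1.77%, 1.15%, 1.59% and 1.30% in the healthy mice. Hsp90ab1 was positive in 29.8% to 33.5% of cells of the sick mice and in 20.5% to 24.4% of the healthy mice. For Hsp90aa1, Hspd1 and Hspe1 the lowest sick mouse had 8.92%, 4.63% and 4.21%, against at most 7.79%, 3.83% and 3.55% in healthy mice. In these genes, Dnajb1 and Hsp90ab1, every sick mouse, sick mouse 1 included, thus had a higher share than every healthy mouse. How many of all genes have this pattern in shares was not computed. Hspa8, Hsph1 and the Hsp70 pair overlapped between the groups. Hsp90ab1 was seen in at least 20.5% of cells in every mouse.

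Cells were next placed in classes by counts of marker genes that exclude the 9 chaperones. A first gate (3 or more distinct markers, 2 more than the next class) gave enough mice for 2 classes, 6928 cells gated as neutrophils and 3180 gated as erythroid cells. Shares of positive cells in gated cell types were among the values that chose the genes, so the class levels and the calls of edgeR's quasi-likelihood test are given as a description, and nothing is read from the counts of calls. In neutrophils, 4 of the 7 tested chaperone genes were called lower than in erythroid cells of the same mice, where 33% of all genes were: Hsph1 (log2 fold change -0.87 ± 0.19), Hspd1 (-0.65 ± 0.14), Hspe1 (-0.56 ± 0.14) and Hsp90aa1 (-0.38 ± 0.11). Hspa8, Dnajb1 and Hsp90ab1 were not called, at -0.10, -0.08 and -0.17, and Hspa1a and Hspa1b fell below the filter.

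Because S100a8 was seen in nearly every cell, a second gate was made after the data had been seen. It asks that a cell's marker UMIs exceed the rate in its mouse, and it left 2824 neutrophils, 1417 erythroid cells, 637 granulocyte progenitors, 510 monocytes or macrophages, 308 eosinophils, 293 B-lineage cells and 120 skeletal muscle cells; classes rest on 3 to 5 sick mice each. In sick mice, each class was set against the mean of the other 6 with the mouse as a block. Granulocyte progenitors (Mpo- and Elane-bearing precursors of neutrophils) were called higher in all 9 genes, where 31.2% of all genes were. Hsp90ab1 had 2261, 2852, 2414, 3035 and 2555 CPM in progenitors of sick mice 1, 3, 4, 5 and 6, against 456, 634, 706, 738 and 850 CPM in neutrophils of the same mice. All 5 mice were higher in progenitors, also sick mouse 1. Hspd1 had 281, 354, 324, 393 and 693 CPM in progenitors, against 33.8, 43.7, 94.1, 52.7 and 93.6 CPM in neutrophils, again with no overlap. Progenitor log2 differences were 1.32 ± 0.18 for Hspd1, 0.87 ± 0.11 for Hsp90ab1 and 0.60 ± 0.19 for Hspa8, the smallest of the 9. In the same contrast Fos was at -0.93 ± 0.18 and Jun at -0.05 ± 0.14.

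Neutrophils were lower in 8 of the 9 genes, where 25.8% of all genes were lower. The differences ran from -2.03 ± 0.26 for Hsph1 and -1.94 ± 0.28 for Hspd1 to -0.59 ± 0.22 for Hspa8. Dnajb1 was the exception at 0.42 ± 0.26, not called. Leaving out any 1 sick mouse left 7 or 8 of the 9 lower in neutrophils and 8 or 9 higher in progenitors. Progenitor cells were deeper than neutrophils, with median counts of 1542 to 2382 and 736 to 826 per cell in the sick mice, and the part of depth in these levels was not tested.

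Monocytes or macrophages were higher in the inducible Hsp70 genes alone, with Hspa1a at 1.01 ± 0.28 and Hspa1b at 0.82 ± 0.25, where 18.4% of all genes were higher; without sick mouse 5 neither passed, and without sick mouse 6 only 1 did. In the same class Fos was higher by 1.79 ± 0.15 and Jun by 0.65 ± 0.15. B-lineage cells were higher in Hsph1, Hsp90ab1, Hspd1 and Hspe1, where 18.5% of all genes were higher, and only 2 of these passed without sick mouse 5 or 6. Eosinophils were higher in Hsp90aa1 (0.98 ± 0.19) and Hsp90ab1 (0.99 ± 0.14), where 10.3% of all genes were higher. Erythroid cells were higher in Dnajb1, Hsp90aa1, Hspd1 and Hspe1, where 32% of all genes were higher, and lower in Fos (-1.06 ± 0.18) and Jun (-0.57 ± 0.15). Without sick mouse 1 only Dnajb1 was higher in erythroid cells and Hsp90ab1 was lower, where 22.6% of all genes were lower with every sick mouse in. Skeletal muscle cells were lower in Hsp90ab1 (-0.71 ± 0.21), where 0.903% of all genes were lower; this ended without sick mouse 3 or 6.

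**Figure D4:**
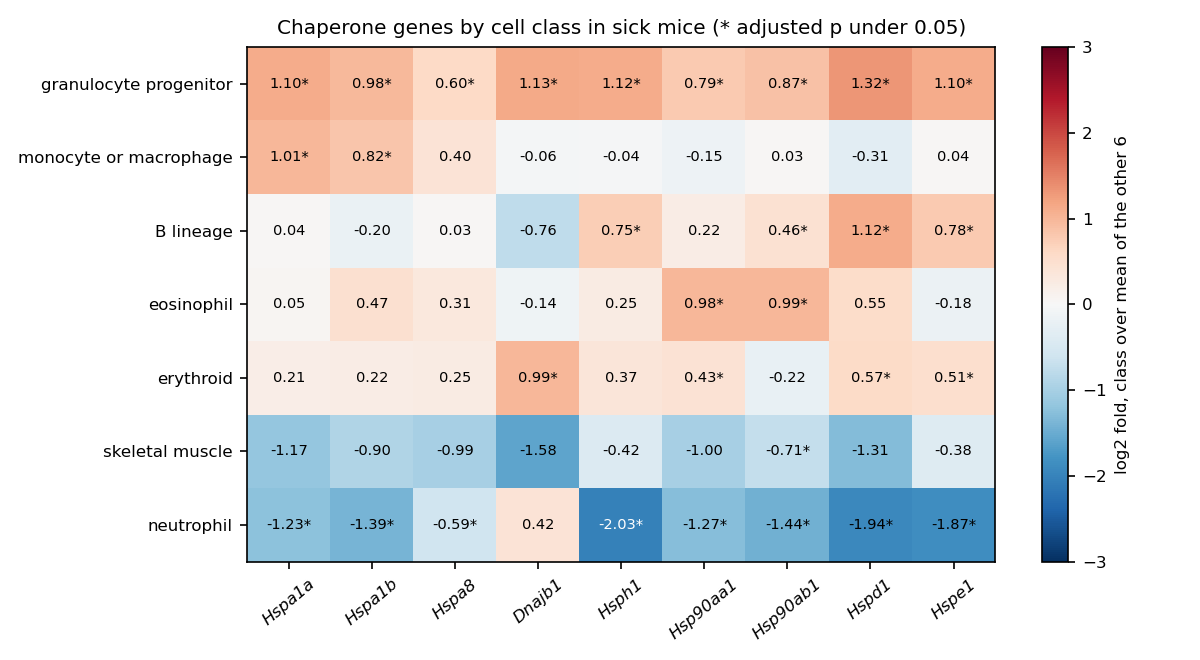
Log2 fold change of each chaperone gene in 1 cell class over the mean of the other 6 classes of sick mice (edgeR, mouse as block), red for higher and blue for lower; stars mark adjusted p-values under 0.05. Granulocyte progenitors are higher in every gene, and neutrophils lower in every gene but Dnajb1.

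In sick mouse 1 no positive cell was seen in the 6 classes of the second gate that had 20 or more thinned cells; skeletal muscle had too few. Its thinned cells held a UMI of Hspa1a or Hspa1b in 0 of 392 neutrophils, 0 of 192 erythroid cells, 0 of 113 granulocyte progenitors and 0 of 86 monocytes or macrophages, which allow shares of up to 0.765%, 1.56%, 2.65% and 3.49%, counting error only. The 30 B-lineage cells and 35 eosinophils of that mouse also held none. In granulocyte progenitors of sick mice 3, 4, 5 and 6 the shares were 14.2%, 18.2%, 31.1% and 21.8%, against 0%, 0%, 0% and 4.0% in healthy mice 1 to 4 (1 cell in all). In healthy mouse 4, 1 positive cell made 4.0%, so few progenitors were read there. The 0% values of healthy mice 1, 2 and 3 carry counting error too and do not exclude positive progenitors. In monocytes or macrophages of the same sick mice 10 of 146, 4 of 40, 21 of 75 and 7 of 42 cells were positive, against 1 of 37 in healthy mouse 1, the only healthy mouse with 20 or more such cells after thinning. In their neutrophils the shares were 2.17%, 1.96%, 4.92% and 3.75%, against 0.778%, 1.27%, 0% and 0% in the healthy mice. A single UMI in a neutrophil was not told apart from free RNA. Within each of these 4 mice, both progenitor and monocyte shares lay above the neutrophil share.

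Sick over healthy mice within a class is the contrast that chose the genes, and its values are given for that reason only. In erythroid cells of the first gate, Hspa1a (4.69 ± 0.92), Hspa1b (5.35 ± 0.97) and Dnajb1 (1.74 ± 0.33) passed, where 0.577% of genes passed as higher, and by the second gate 0 of the tested chaperone genes passed in erythroid cells, with Hspa1a and Hspa1b below the filter and 5 at an unadjusted p under 0.05. In neutrophils of the first gate none of the 9 passed by edgeR at the adjusted threshold, where 0.411% did, although 9 had an unadjusted p under 0.05 and 1 passed by DESeq2. In granulocyte progenitors of the second gate Hspa1b, Dnajb1, Hsph1, Hsp90aa1 and Hspd1 passed, where 0.597% did. No tested chaperone gene passed edgeR's interaction test of erythroid cells (first and second gate) or progenitors (second gate) minus neutrophils, where 0.046%, 0% and 0% of all genes passed, so the effect was not shown to differ between classes; 1, 2 and 1 genes had an unadjusted p under 0.05.

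Detection of the Hsp70 pair was next set beside that of Fos and Jun in the same cells. Among thinned cells with a Fos or Jun UMI, 0.353%, 12.5%, 14%, 22.9% and 20.7% of cells of sick mice 1, 3, 4, 5 and 6 held Hspa1a or Hspa1b, against 0.0808%, 5.03%, 4.42%, 8.02% and 9.0% of the cells with neither. The share was thus higher beside Fos or Jun in all 5 sick mice, by 8.78 ± 5.47 percentage points (SD), though sick mouse 1 had 3 positive cells in all. In healthy mice 1 to 4 the shares were 0.435%, 0%, 0% and 0% beside Fos or Jun, against 0.549%, 0.580%, 0.0893% and 0.0985% without, from 11 positive cells in total. The mean healthy difference was -0.220 percentage points, and without thinning it turned to 0.510 points, with the share higher beside Fos or Jun in 9 of 9 mice. In sick mouse 1, 567 of 1805 thinned cells held a Fos or Jun UMI.

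The same held in monocytes or macrophages, granulocyte progenitors and neutrophils, and only in part in erythroid cells. Other classes are not described here. In monocytes or macrophages of the second gate, 9 of 56, 3 of 15, 15 of 32 and 5 of 21 cells with Fos or Jun held Hspa1a or Hspa1b in sick mice 3, 4, 5 and 6, against 1 of 90, 1 of 25, 6 of 43 and 2 of 21 of the others. In granulocyte progenitors the numbers were 9 of 42, 3 of 12, 8 of 16 and 5 of 16 cells with Fos or Jun, against 15 of 127, 7 of 43, 11 of 45 and 14 of 71 without. In neutrophils the shares were 3.29%, 3.23%, 6.11% and 6.32%, against 1.86%, 1.64%, 4.43% and 3.01%. Each of these 4 mice was higher beside Fos or Jun in all 3 classes, on small numbers of cells. In erythroid cells, sick mice 5 and 6 were higher (23.1% and 28.6%, against 4.55% and 16.6%) and sick mice 3 and 4 were not (3.39% and 0%, against 5.41% and 4.59%).

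**Figure D5:**
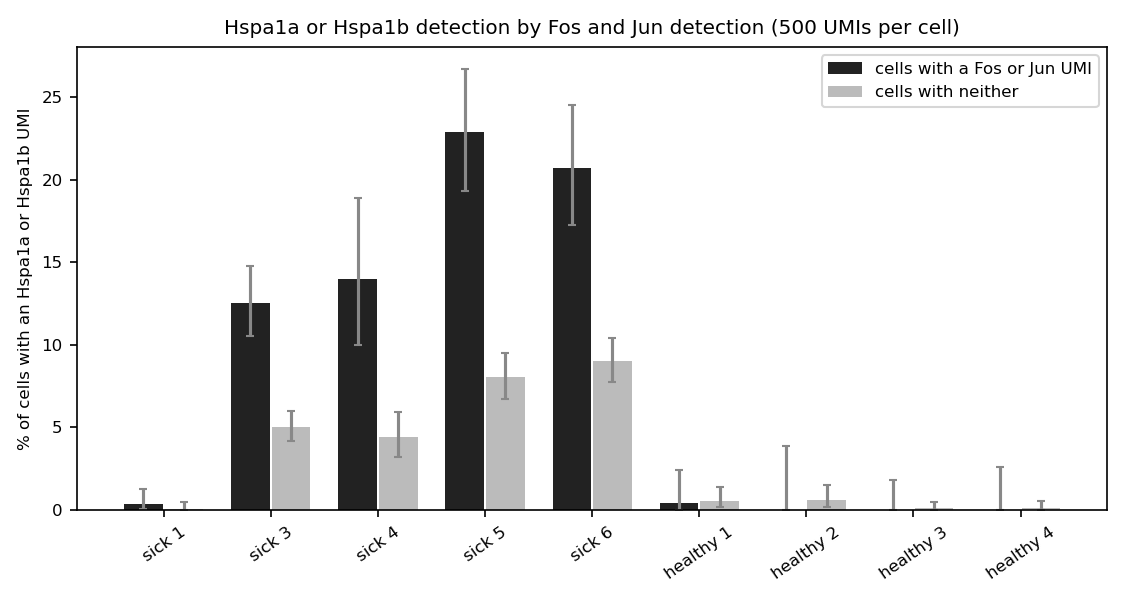
Share of cells with an Hspa1a or Hspa1b UMI among cells with a Fos or Jun UMI (black) and among cells with neither (grey), per mouse, sick left and healthy right, 500 UMIs per cell; bars are exact 95% binomial intervals, counting error only. In sick mouse 5 the shares are 22.9% and 8.02%, in sick mouse 1 and the healthy mice both are near 0.

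Detection of the other chaperones in the same cells as the Hsp70 pair did not enter the choice of genes and was tested. In sick mice 3, 4, 5 and 6, Hsp90aa1 was seen in 32.5%, 16.5%, 48.8% and 51.5% of cells with Hspa1a or Hspa1b, against 13.1%, 12.7%, 14.9% and 19.8% of cells without. Hsph1 was seen in 11.1%, 7.59%, 19.6% and 28.5% of the first, against 3.30%, 2.43%, 3.76% and 7.73% of the second. Dnajb1 was seen in 11.5%, 5.06%, 21.7% and 14.4%, against 4.06%, 3.30%, 4.94% and 4.11%. All 4 of these mice were higher beside the pair for all 3 genes. Over all 9 mice the mean difference for Hsp90aa1 was 14.5 ± 15.5 percentage points (SD), higher in 7 of 9 mice, with an exact two-sided sign-flip permutation p of 0.0312, which became 0.219 when adjusted over the 7 genes (Benjamini-Hochberg). No gene passed after adjustment, and 1 did before it; sick mouse 1 and the healthy mice add 1 to 5 positive cells each. Without thinning, 3 of the 7 passed (lowest adjusted p = 0.0456), a setting in which deeper cells show more of every gene.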

How the data were processed

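Single cells of whole knee joints of 5 sick and 4 healthy mice were read by Seq-Well. Per the labels' protocols, reads went through bcl2fastq, Picard and the Drop-seq core pipeline of the McCarroll laboratory, release 1.0.1, and were aligned with STAR, after sequencing rounds of 1 sample were merged. The protocol text names the human build GRCh38, the submitters' processing notes name GRCm38 and mm9; which build was aligned to is not given in the sources used here. The authors deposited raw UMI counts per gene and cell, and these whole-number counts were used as deposited. Gene positions are from GENCODE M21 (GRCm38) by symbol, and promoters are from RefSeq (GRCm38.p6).

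A cell was kept if 200 or more genes were seen in it and mitochondrial genes took no more than 20% of its counts. The genes and lists were chosen with earlier results of these data known. Counts were summed per mouse, and per mouse and class where at least 20 cells were present, and fitted with edgeR 4.0.16 in R 4.3.3 (filterByExpr, TMM, quasi-likelihood test, Benjamini-Hochberg over all tested genes of a comparison, threshold 0.05). CPM values are TMM-scaled, and log2 CPM carries a prior count of 2. Class contrasts had the mouse as a block. For detection, each cell was thinned to 500 UMIs (14985 cells, 10764 of sick and 4221 of healthy mice) with numpy 2.4.6; intervals are exact binomial at 95%, a 0 allows 3 counts, and both cover counting error only. No doublet caller was run. The second gate kept a cell when its marker UMIs had a Poisson tail under 1e-04, at least 100 times smaller than for the next class, with 3 distinct markers. Genes outside the 9 were named as the 4 largest fold changes of each list at 20 CPM or more, of which a selection is printed, and the 5 nearest profiles. On simulated data the whole-joint test recovered 63% of 2-fold and 100% of 4-fold changes (10409 genes), and the neutrophil over erythroid test recovered 100% of both (5067 genes). The simulation gave every gene the same dispersion between mice. These shares therefore do not describe genes with a far wider spread, such as Hspa1a, Hspa1b and Hsph1. Mice are separate animals. The labels give no batch for a mouse, so batch and group cannot be told apart, and no within-batch value could be had. As alternatives, DESeq2 1.42.0 was used for the test and for scaling, with other filters, gates, depths and thinning levels, with each mouse left out, and with the replicate number as a term.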

Additional observations from a re-analysis of the deposited data

Results flagged for a closer look

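Of 38 groups of 4 or 5 mice examined for a single distant value (log2 CPM and shares of positive cells of the 9 genes), 1 was marked, and chance marks about 1 in 20. Hspa1b in sick mouse 1, at 1.15 on the log2 CPM scale, lay far below the other 4 sick mice. The same mouse had the highest Fos level (472 CPM) of all 9 mice; the part of any other difference of this mouse in the value was not tested.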

How the results depend on the processing

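All 155 fold changes of the 9 genes under whole-joint alternatives stayed positive. The number of genes passing, 2 with all mice, was 6 with no filter on low counts, 1 in cells with at least 400 genes and 0 without healthy mice 2, 3 and 4; it ran from 0 to 6 with single mice left out. The replicate number as a block gave 0; same-numbered mice had correlations of 0.173, -0.0479 and 0.0701 between their deviations, so the numbers only name mice. Within erythroid cells 3 passed, 0 by the second gate and 1 to 5 with single mice left out; within neutrophils 0 passed, 1 by DESeq2 and 0 to 4 with single mice left out. Over the other classes of sick mice, with single mice left out, higher genes numbered 1 to 5 in erythroid cells (0 to 1 lower), 2 to 4 in B-lineage cells and 0 to 2 in monocytes or macrophages, and lower genes numbered 0 to 2 in skeletal muscle. Without thinning, the share of cells with Hspa1a or Hspa1b was 12.4% in sick mice (7.44% thinned), 12.7% in erythroid cells of sick mice and 0.545% in those of healthy mice; the difference by Fos or Jun in healthy mice turned to 0.510 percentage points (-0.22 thinned); and 3 genes passed beside the Hsp70 pair. Except where the filter no longer tested a gene, the causes were not tested. At the same 500 UMIs per cell, the healthy mice and sick mouse 1 each held only 1 to 5 cells positive for Hspa1a or Hspa1b. Shares and differences in these mice therefore rest on few positive cells.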
